A study of Homo sapiens with 6 samples.

Results

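The genes described here are JMJD6 and its relatives, 31 members in all out of 19779 genes with a value in every library. They are proteins with a jumonji C (JmjC) domain and the amine oxidase demethylases of the LSD family. They were chosen by name, by matching the gene symbols of the deposited table to a fixed list. That list was chosen with earlier results of these data known. It does not hold every JmjC protein, and C14orf169, related to MINA, is counted below among other dioxygenases. All 31 symbols were found, each in 1 row. Total RNA was sequenced from SET-2, a human leukemia line that the labels class as sAML and as blast cells, in 2 groups. They are SET-2 Parental and a second line, SET-2 OTX P/R, whose abbreviations the labels do not spell out, in a series titled for resistance to BET inhibitors. There were 3 libraries per group, and all 6 came from untreated cultures in exponential growth in RPMI1640 medium with 20% FBS. The comparison is therefore between the lines without drug. A single OTX P/R line is named, so differences tied to resistance and other differences between the lines cannot be told apart.

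JmjC proteins are dioxygenases that use iron, oxygen and 2-oxoglutarate to hydroxylate their substrates. On a methylated lysine the hydroxylated methyl group is lost, which makes many of them histone demethylases, while the smaller members hydroxylate amino acids or RNA bases of other substrates. The LSD enzymes KDM1A and KDM1B remove methyl groups by flavin-dependent oxidation instead and need no 2-oxoglutarate. In blood cells KDM1A acts with the CoREST corepressor and the factors GFI1 and GFI1B. JMJD6, named in the title of the series in an axis with beta-catenin, TCF7L2 and MYC, hydroxylates lysines of splicing regulators and has been tied to the release of paused RNA polymerase.

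The values are quantile-normalized StringTie abundances on a linear scale, with summed values between 419375 and 419437 in every library, and they carry no record of depth. Of the markers fixed here for megakaryocytic cells and for blood progenitor and erythroid cells, all but PF4 were present. ITGA2B was at 204.3 to 227.2 in the parental and 133.7 to 141.1 in the OTX P/R libraries. GATA1 was at 183.9 to 206.5 over all 6, while PF4 was listed at 0. Among these markers ITGA2B fell, as did KIT (means 106.1 and 54.3), while ITGB3 (4.83 and 21.0), GP9 (34.8 and 51.0), CD34 (32.6 and 63.4) and TAL1 (31.8 and 41.9) rose and GATA1 was not called. Summed T cell markers went from 5.42 to 7.71 in parental libraries and from 0.532 to 0.953 in OTX P/R libraries. CD3D carried them and fell (means 5.24 and 0.593), CD2 was not tested (1.44 and 0.105), and CD3E was at 0.0261 or less. Summed fibroblast markers went from 0.0689 to 0.132 in parental and from 1.86 to 2.00 in OTX P/R libraries, carried by COL1A1. Summed B cell markers went from 8.45 to 9.16 and from 6.45 to 7.19, carried by CD79A, which fell, with MS4A1 listed at 0 in all libraries. DCN was at 0.00249 or less. Summed monocyte markers were higher than these, from 86.9 to 100.3 in parental and from 80.9 to 102.6 in OTX P/R libraries. LYZ carried them and was not called, with CD14 and CSF1R at 0.0744 or less. Summed epithelial markers were at 0.738 or less in every library. The part of these shifts in the results below was not tested.

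Of the 31 members 27 reached a mean of 1 across the 6 libraries and were tested with limma on log2(value + 1), with p-values adjusted over all 10741 genes tested. An adjusted p under 0.05 is a call, and a rise or fall below is a called gene. In bulk RNA fewer cells with a transcript and less of it per cell cannot be told apart. In OTX P/R cells 7 members rose, KDM1B, JMJD8, JARID2, PHF8, KDM4A, KDM2A and PHF2, and 5 fell, KDM3B, MINA, KDM4B, KDM5C and HIF1AN. The 15 others did not pass, JMJD6 among them. The 12 called members are 44.4% of those tested, beside 36.1% of all tested genes (18.6% higher and 17.5% lower), so the family was called at a share near that of the whole table. The median log2 fold change of the members was 0.11, beside 0.02 over all tested genes, and its median size regardless of direction was 0.24, beside 0.21. The fold changes ranged from -0.71 for KDM3B to 0.65 for KDM1B. Summed over the family the level was 388.0 ± 26.4 in parental and 384.3 ± 12.3 in OTX P/R libraries (SD, n = 3 per group), a difference within the spread of the libraries.

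**Figure D1:**
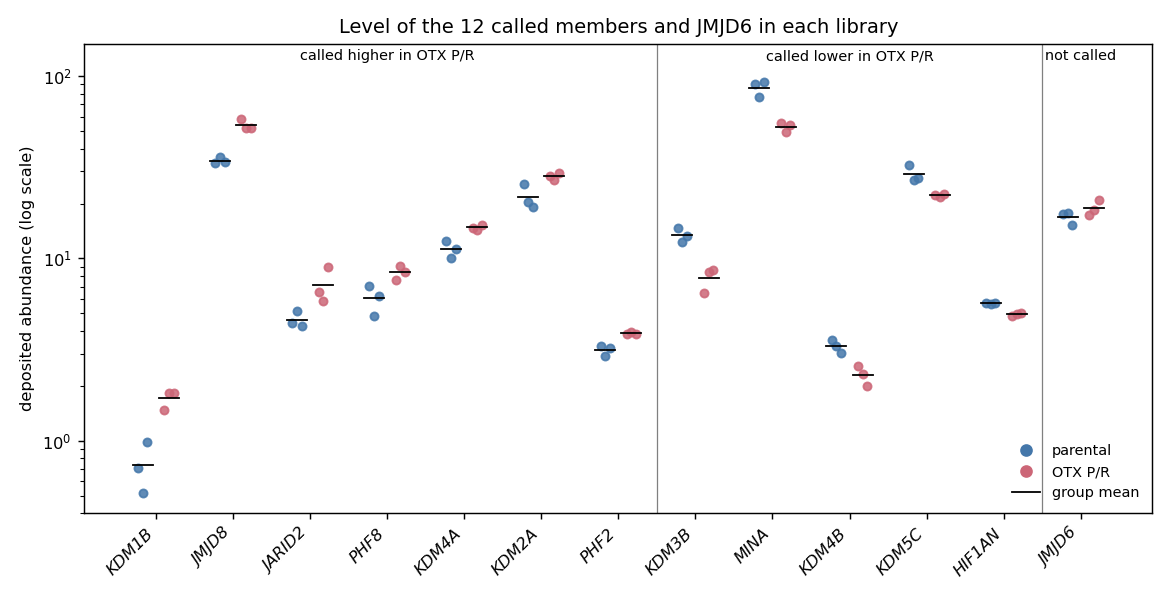
Deposited abundance (log scale) of the 12 called members and JMJD6 in each library; points are libraries, bars are means of 3. The parental and OTX P/R points of all 12 called members do not overlap, while those of JMJD6 do (15.3 to 17.7 against 17.2 to 20.9). The 12 were called on these same values, and the groups did not overlap for 51.6% of all tested genes.

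The regions upstream of 3 called members are shown because the first pair are close paralogs that moved in opposite directions and the last rose together with its chromosomal neighbours. They are the 250 bases before the RefSeq start of KDM4A (chr1:43649899-43650148, plus strand, higher in OTX P/R), KDM4B (chr19:4968863-4969112, plus strand, lower) and JARID2 (chr6:15245819-15246068, plus strand, 1 of its 2 listed starts, higher), all on GRCh38.p14, which is not the build of the deposited values. None of them overlaps an exon of GENCODE release 29. Capitals mark 4 of 5 motifs searched on both strands, the E-box CACGTG bound by MYC and its relatives, the TCF core CTTTGA, the GC box GGGCGG and the CCAAT box. The unmarked one is the GATA motif GATAA.
KDM4A: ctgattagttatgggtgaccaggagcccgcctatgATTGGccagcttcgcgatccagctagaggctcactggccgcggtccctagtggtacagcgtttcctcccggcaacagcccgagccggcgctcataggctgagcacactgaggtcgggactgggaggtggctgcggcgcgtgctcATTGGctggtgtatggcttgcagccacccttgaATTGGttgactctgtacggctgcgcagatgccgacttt
KDM4B: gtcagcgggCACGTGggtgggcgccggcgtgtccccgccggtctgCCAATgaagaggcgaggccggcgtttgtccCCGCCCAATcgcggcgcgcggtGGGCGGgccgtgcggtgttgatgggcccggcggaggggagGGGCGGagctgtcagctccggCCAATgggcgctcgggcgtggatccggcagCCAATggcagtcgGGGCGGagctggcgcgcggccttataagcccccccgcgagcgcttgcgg
JARID2: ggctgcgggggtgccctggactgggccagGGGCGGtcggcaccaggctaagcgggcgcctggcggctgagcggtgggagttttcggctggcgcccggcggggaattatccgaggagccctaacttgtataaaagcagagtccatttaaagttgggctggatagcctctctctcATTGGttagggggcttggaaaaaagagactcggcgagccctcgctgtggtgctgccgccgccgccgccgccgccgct
The KDM4A window holds 3 CCAAT boxes and no other motif. The KDM4B window holds 1 E-box, beginning 241 bases before the start, with 4 GC boxes and 4 CCAAT boxes, 1 of which overlaps a GC box. The JARID2 window holds 1 GC box, 1 CCAAT box and 1 GATA motif. RefSeq windows were found for 27 of the 31 members, 38 windows in all, with none for JMJD6, MINA, HR or KDM4E. An E-box lies in 5 of the 38 windows, 1 each of HSPBAP1, JMJD1C, KDM4B, KDM4C and KDM6A, beside 6.35% of the 35114 windows of all genes and 8.56% of the 11747 windows of tested genes. KDM4B is the 1 called member among these 5. The TCF core lies in 2 member windows, of JMJD1C and PHF8, beside 7.78% of the windows of tested genes. These matches describe letters only, and no binding was measured.

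JMJD6 did not pass the test. Its level was 17.5, 17.7 and 15.3 in the parental libraries and 17.2, 18.5 and 20.9 in the OTX P/R libraries. The groups overlap, since OTX P/R replicate 1 lies below parental replicates 1 and 2. The log2 fold change was 0.15 ± 0.09 (SE) with a 95% interval from -0.07 to 0.37 (limma adjusted p = 0.246). It did not pass with any library left out, with log2 fold changes from 0.08 without OTX P/R replicate 3 to 0.21 without OTX P/R replicate 1. JMJD6 stood above 81.4% of all genes of the table and held 4.37% of the summed family level in parental and 4.91% in OTX P/R libraries.

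Among the other small JmjC hydroxylases JMJD8 rose, and MINA and HIF1AN fell. JMJD8, a JmjC protein of the endoplasmic reticulum, had the smallest adjusted p of the family. Its level was 33.2, 36.0 and 33.8 in parental and 58.4, 51.8 and 52.0 in OTX P/R libraries. Every OTX P/R library lies above every parental one, with a ratio of means of 1.57, a log2 fold change of 0.64 ± 0.06 (SE) and a limma adjusted p of 0.000751. STUB1, which overlaps JMJD8 on the opposite strand in GENCODE, did not pass, at means of 53.4 and 54.9.

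MINA, also known as RIOX2, a nucleolar oxygenase that hydroxylates a ribosomal protein, was the most abundant member of the family in parental cells. It stood at 90.1, 76.3 and 92.4 in parental and at 55.1, 49.1 and 53.8 in OTX P/R libraries. The groups are well apart, with a ratio of means of 0.610, a log2 fold change of -0.70 ± 0.09 (SE) and a limma adjusted p of 0.00181. Its share of the summed family level went from 22.2% to 13.7%, below that of KDM1A and JMJD8 in OTX P/R cells. CRYBG3, which overlaps MINA on the opposite strand, fell as well, from a mean of 2.78 to 1.12, and whether the counting used strand is not given in the sources used here, so reads from the overlap cannot be told apart. The level of CRYBG3 was far below that of MINA in both groups.

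HIF1AN, the asparagine hydroxylase that restrains hypoxia-inducible factor, fell by less. Its level was 5.72, 5.62 and 5.69 in parental and 4.86, 4.96 and 5.02 in OTX P/R libraries, narrow ranges that do not overlap. The log2 fold change was -0.17 ± 0.05 (SE, limma adjusted p = 0.0489). The HIF1AN call was lost with each of the 6 libraries left out in turn, with adjusted p from 0.0828 to 0.137, while the fold change lay between -0.18 and -0.16. KDM8, an arginine hydroxylase once classed as a demethylase, stood at 6.03, 6.60 and 5.01 in parental and 4.03, 4.97 and 4.11 in OTX P/R libraries. These ranges do not overlap, and KDM8 missed the threshold (log2 fold change -0.36, limma adjusted p = 0.0563). It passed without parental replicate 3 (limma adjusted p = 0.0328) and without OTX P/R replicate 2 (0.0494).

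The remaining hydroxylases did not pass. JMJD4, which acts on a translation termination factor, had a log2 fold change of 0.12 (95% interval -0.02 to 0.26) at means of 12.5 and 13.7. The interval reached from -0.30 to 0.12 for JMJD7, a lysyl hydroxylase of GTPases, from -0.04 to 0.35 for HSPBAP1, which binds a small heat shock protein, and from -0.22 to 0.15 for TYW5, a hydroxylase of transfer RNA. JMJD7 shares its locus with the readthrough gene JMJD7-PLA2G4B, listed at means of 1.70 and 1.66, so reads could be split between these rows.

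The LSD enzymes differed from each other. KDM1A, the main H3K4 demethylase of the CoREST complex and a drug target in leukemia, was the second most abundant member in parental cells, at 77.7, 56.4 and 76.9 in parental and 69.3, 70.1 and 72.5 in OTX P/R libraries. The parental libraries enclose the OTX P/R ones, with parental replicate 2 the lowest of all. The log2 fold change of KDM1A was 0.02, with a 95% interval from -0.29 to 0.33, and -0.13 without parental replicate 2. KDM1B, which acts in transcribed gene bodies, was low and rose. It stood at 0.713, 0.516 and 0.981 in parental and 1.48, 1.84 and 1.84 in OTX P/R libraries. The groups do not overlap, with a ratio of means of 2.33, the highest among tested members, and a log2 fold change of 0.65 ± 0.12 (SE, limma adjusted p = 0.00824). That scale understates the change of a gene this low.

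Of the 4 tested KDM2 and KDM7 enzymes 3 were called higher and none lower, beside 18.6% and 17.5% of all tested genes. These proteins pair a JmjC domain with a PHD or CXXC finger that reads the chromatin around their substrate. KDM2A, an H3K36 demethylase at CpG islands, stood at 25.7, 20.5 and 19.2 in parental and 28.4, 26.8 and 29.5 in OTX P/R libraries (log2 fold change 0.37 ± 0.11 SE, limma adjusted p = 0.0456). PHF8, an H3K9 demethylase encoded on the X chromosome, went from 7.04, 4.86 and 6.19 to 7.61, 9.14 and 8.46 (0.43 ± 0.13 SE, limma adjusted p = 0.0480). PHF2, its relative, went from 3.30, 2.91 and 3.21 to 3.87, 3.95 and 3.87 (0.24 ± 0.06 SE, limma adjusted p = 0.0284). In each of these genes the lowest OTX P/R library lies above the highest parental one, by a small margin for KDM2A and PHF8. All 3 calls were lost with each library left out except parental replicate 1, with adjusted p from 0.0801 to 0.122 for KDM2A, 0.0650 to 0.135 for PHF8 and 0.0605 to 0.0859 for PHF2. KDM2B, the subunit that brings a variant Polycomb complex to CpG islands, overlapped between the groups (log2 fold change 0.11, 95% interval -0.34 to 0.57). KDM7A was below the minimum mean, at 0.205, 0.151 and 0.205 in parental and 0.582, 0.653 and 0.516 in OTX P/R libraries. Its groups do not overlap, at a ratio of means of 3.13, and with no minimum its log2 fold change was 0.42 (limma adjusted p = 0.00137). KDM7A lies on chromosome 7 and, as an untested gene, was not set beside its neighbours. The summed level of these 5 genes was 36.8 ± 4.16 in parental and 47.2 ± 1.91 in OTX P/R libraries (SD, n = 3 per group), and KDM2A made up most of it.

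Among the KDM3 enzymes, which demethylate H3K9, KDM3B fell. Its level was 14.7, 12.2 and 13.3 in parental and 6.47, 8.39 and 8.62 in OTX P/R libraries. No OTX P/R library reached the parental range, with a ratio of means of 0.584 and a log2 fold change of -0.71 ± 0.12 (SE, limma adjusted p = 0.00557), the largest fall in the family. KDM3A, an enzyme induced by hypoxia, overlapped between the groups at means of 6.18 and 6.70 (95% interval -0.19 to 0.41). JMJD1C, which sustains several leukemias, stood at 6.60, 3.52 and 4.79 in parental and 3.78, 4.01 and 3.88 in OTX P/R libraries and was not called (log2 fold change -0.26, 95% interval -0.71 to 0.20). REEP3, which overlaps JMJD1C on the opposite strand, fell by 0.33 on the log2 scale. HR, the hairless corepressor, was at or below 0.185 in every library and was not tested.

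The KDM4 enzymes, which act on H3K9 and H3K36, moved in both directions. KDM4A stood at 12.5, 10.03 and 11.3 in parental and 14.8, 14.3 and 15.3 in OTX P/R libraries. KDM4B went the other way, from 3.56, 3.33 and 3.05 to 2.56, 2.32 and 1.99. Neither gene overlaps between the groups, and the log2 fold changes of 0.37 ± 0.08 and -0.39 ± 0.09 (SE, limma adjusted p = 0.0169 and 0.0190) are of similar size. The KDM4A call was lost without OTX P/R replicate 1 (limma adjusted p = 0.0507) or 3 (0.0566), and the KDM4B call without parental replicate 1 (0.0559), parental replicate 2 (0.0535) or OTX P/R replicate 2 (0.0534). KDM4C varied within the groups more than any other tested member, at 5.69, 4.23 and 1.11 in parental and 2.02, 2.38 and 5.70 in OTX P/R libraries. Its 95% interval reached from -1.28 to 1.21, so these libraries set no useful bound on a difference. KDM4D was just below the minimum mean, at 0.853 ± 0.0463 in parental and 1.04 ± 0.0254 in OTX P/R libraries (SD, n = 3 per group), and had a log2 fold change of 0.14 with no minimum (limma adjusted p = 0.0348). KDM4E was listed at 0 in all libraries. KDM4D and KDM4E are close paralogs, between which reads could be split.

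Of the KDM5 enzymes, which remove H3K4 methylation, KDM5C fell. It stood at 32.7, 26.9 and 27.7 in parental and 22.2, 21.7 and 22.7 in OTX P/R libraries. The OTX P/R libraries lie close together below all parental ones (log2 fold change -0.37 ± 0.08 SE, limma adjusted p = 0.0150). Without OTX P/R replicate 2 the adjusted p was 0.0521. KDM5B, a marker of slow-cycling cells in some tumors, stood at 13.4, 14.5 and 15.8 in parental and 18.9, 16.1 and 19.4 in OTX P/R libraries. KDM5B does not overlap between the groups either, and missed the threshold narrowly (log2 fold change 0.30 ± 0.09 SE, limma adjusted p = 0.0505). KDM5B passed without OTX P/R replicate 2 (limma adjusted p = 0.0277). KDM5A was not called (95% interval -0.09 to 0.28), while CCDC77, which overlaps it on the opposite strand, fell by 0.85 on the log2 scale. The summed level of KDM5A, KDM5B, KDM5C and JARID2 was 52.9 ± 2.32 in parental and 52.5 ± 4.05 in OTX P/R libraries (SD, n = 3 per group).

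JARID2 belongs to this branch by sequence but has lost enzyme activity and serves as a subunit of the Polycomb repressive complex PRC2. Its level was 4.42, 5.17 and 4.25 in parental and 6.53, 5.85 and 8.96 in OTX P/R libraries. The groups do not overlap, and OTX P/R replicate 3 is the highest (log2 fold change 0.52 ± 0.15 SE, limma adjusted p = 0.0424). The JARID2 call was lost with each library left out except OTX P/R replicate 2, with adjusted p from 0.0550 to 0.117. The KDM6 enzymes, which remove H3K27 methylation, did not pass. KDM6A, mutated in several leukemias, overlapped between the groups (95% interval -0.22 to 0.62). KDM6B stood at 7.86, 7.32 and 7.20 in parental and 8.05, 8.88 and 9.03 in OTX P/R libraries, ranges that do not overlap (log2 fold change 0.19 ± 0.07 SE, limma adjusted p = 0.0710).

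Over the family, the groups did not overlap for 16 tested members, 10 higher and 6 lower in OTX P/R libraries, beside 51.6% of all tested genes, 26.8% higher and 24.9% lower. KDM1B, KDM3B, JMJD8 and MINA were called with each of the 6 libraries left out, with adjusted p of at most 0.0321, 0.0225, 0.00490 and 0.00910. The other 8 calls were each lost with at least 1 library left out. An omission also leaves fewer libraries to test, so a lost call alone does not show that the omitted library carried the difference. Counted over the omissions, 2 to 6 members were higher and 3 to 5 lower, beside 7 and 5 with all libraries. The count of higher members was 3 without parental replicate 2 or 3 and 2 without OTX P/R replicate 1 or 3. The count of lower members was 3 without parental replicate 1, parental replicate 2 or OTX P/R replicate 2.

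**Figure D2:**
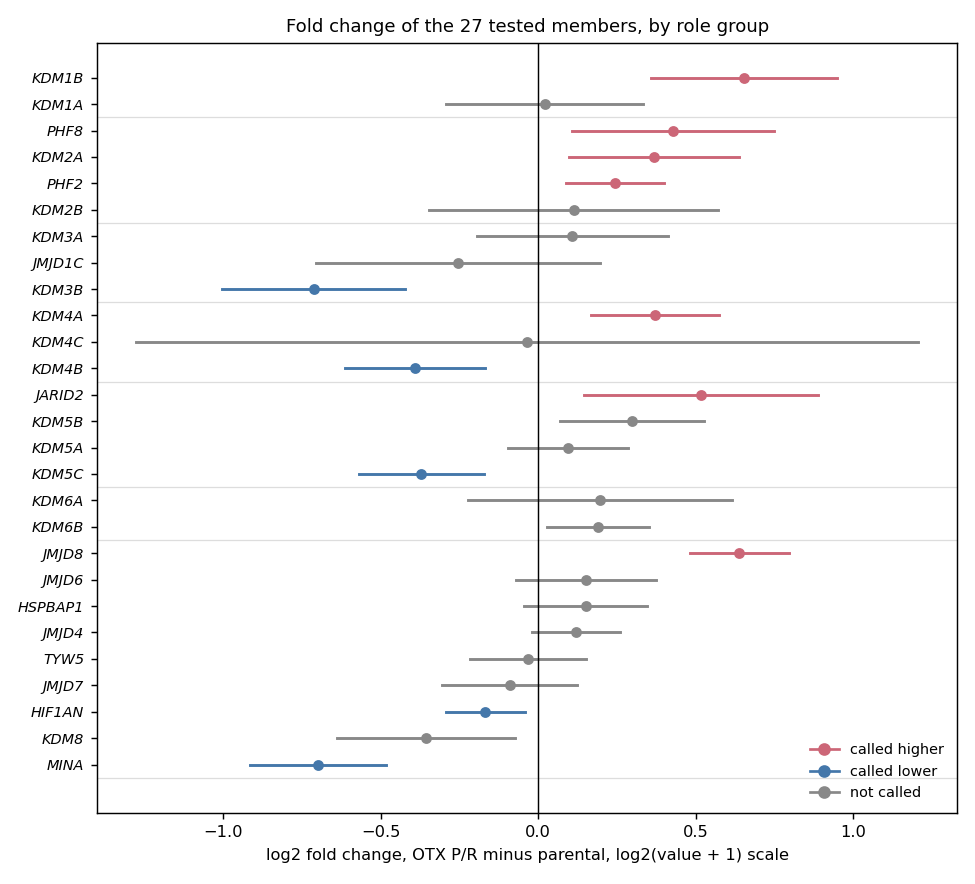
Log2 fold change (OTX P/R minus parental, on the log2(value + 1) scale) of the 27 tested members; points are estimates, lines 95% intervals from limma, and grey rules part the role groups. Called members lie on both sides of 0, from KDM3B at -0.71 to KDM1B at 0.65, and the interval of KDM4C is the widest.

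Neighbouring genes on a chromosome were set beside each tested member, by taking the 12 tested genes on each side in GENCODE order. The median log2 fold change of these neighbours was 0.3 or more in size for 3 members, KDM1B, JARID2 and KDM3B, and between -0.16 and 0.22 for the other 24. Among all tested genes 8.57% had such a neighbour median. KDM1B and JARID2 lie on chromosome 6 and share 15 of their 24 neighbours, and each is itself counted among the neighbours of the other. Of the 24 neighbours of KDM1B 21 rose and 1 fell, with a median of 0.75, close to 0.65 for KDM1B itself. DEK, a chromatin protein next to KDM1B, had a called log2 fold change of 0.94, and TPMT, a drug-metabolizing methyltransferase on its other side, the same value. Around JARID2 16 of 24 rose and none fell, with a median of 0.65, above the 0.52 of JARID2. On chromosome 5, 14 of the 24 neighbours of KDM3B fell and none rose, with a median of -0.54 beside -0.71 for KDM3B. FAM53C and ETF1, a translation termination factor, flank KDM3B with log2 fold changes of -0.68 and -0.77, and both fell. The calls of these 3 members thus moved with their surroundings, whose part in the result was not tested.

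Of the other called members JMJD8, MINA, KDM5C and KDM4B lay furthest from their neighbours. The neighbours of JMJD8 on chromosome 16 had a median of 0.13, with 6 higher and 5 lower, and JMJD8 exceeded it by 0.51. WDR24 and METRN, the next tested genes on one side, rose as well, with log2 fold changes of 0.30 and 0.70. For MINA on chromosome 3 the neighbour median was -0.02, with 1 higher and 1 lower. The genes directly beside MINA were lower too, CRYBG3 by a called log2 fold change of -0.82 and CLDND1 at -0.68, which did not pass. KDM5C and KDM4B differed by -0.52 and -0.49 from neighbour medians of 0.15 and 0.09, with 10 neighbours of KDM5C higher and 4 lower, and 2 of KDM4B each way. HIF1AN lay close to its neighbours, differing by -0.07 from a median of -0.09, with 1 neighbour higher and 8 lower. KDM4A differed by 0.16 from a median of 0.22, with 11 neighbours higher and 1 lower. KDM2A, PHF8 and PHF2 differed by 0.27, 0.28 and 0.35 from medians of 0.10, 0.15 and -0.11. For JMJD6 on chromosome 17 the median was 0.14, close to its own 0.15.

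**Figure D3:**
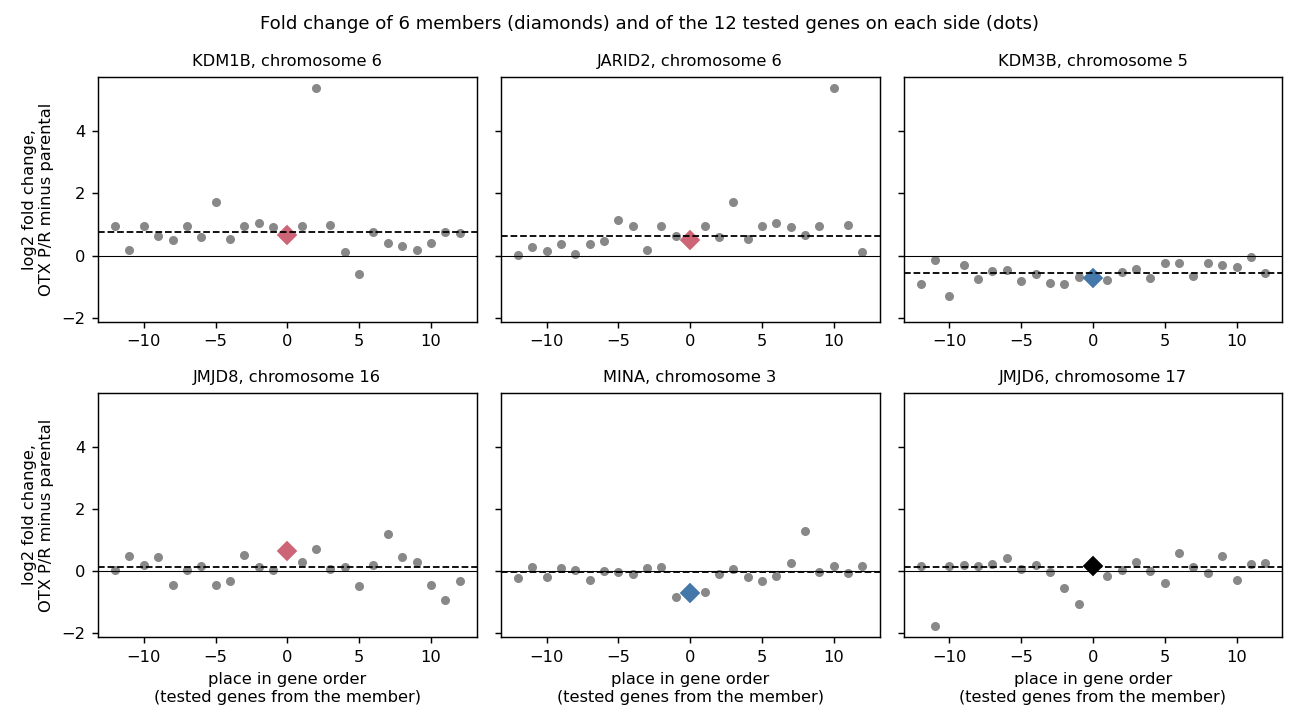
Log2 fold change (OTX P/R minus parental) of 6 members (diamonds; red higher, blue lower, black not called) and of the 12 tested genes on each side (dots) against place in gene order; dashed lines are neighbour medians. The neighbours of KDM1B, JARID2 and KDM3B are shifted with the member (medians 0.75, 0.65 and -0.54). Those of JMJD8, MINA and JMJD6 have medians of 0.13, -0.02 and 0.14.

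Genes that work with or against the family were taken from 9 fixed lists, which were chosen with earlier results of these data known. Over these lists, each gene counted once and members left out, 19 rose, 20 fell and 89 of 128 tested did not pass, 30.5% called beside 36.1% of all tested genes. The CoREST and LSD partners had 3 of 14 tested genes higher and 1 lower (median log2 fold change -0.04). GFI1B, a repressor of erythroid and megakaryocytic cells that recruits KDM1A, rose from 47.5, 49.4 and 46.1 to 77.5, 80.1 and 74.9 (log2 fold change 0.69 ± 0.05 SE, limma adjusted p = 0.000170). The OTX P/R libraries of GFI1B lie far above the parental ones. Its paralog GFI1 fell, from 8.21, 8.94 and 8.47 to 5.10, 6.58 and 5.96 (-0.48 ± 0.09 SE, limma adjusted p = 0.00957). The scaffolds RCOR1 and RCOR3 rose by log2 fold changes of 0.35 and 0.39. The opposite shifts of GFI1B and GFI1 stood beside a KDM1A level that did not pass.

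Partners of KDM2B and JARID2 in Polycomb complexes had calls in both directions. Of 8 tested PRC1.1 partners 1 fell and none rose (median 0.06), SKP1, a ubiquitin ligase adaptor, from 121.4 ± 2.22 to 52.1 ± 9.57 (SD, n = 3 per group), in a part of chromosome 5 with a neighbour median of -0.79. Of 10 PRC2 genes 2 rose and 1 fell (median 0.06). EZH2, the H3K27 methyltransferase that opposes KDM6A and KDM6B, rose from 11.6 ± 1.44 to 21.7 ± 1.38 and SUZ12, its core partner, fell from 15.5 ± 1.38 to 7.97 ± 0.410. Their neighbour medians were 0.70 on chromosome 7 and -0.72 on chromosome 17. PHF19, a PRC2 accessory subunit, was higher by 0.31 on the log2 scale, also a call. Of 9 COMPASS partners of KDM6A 2 rose and none fell (median 0.19), PAXIP1 by 0.65 and PAGR1 by 0.28, and the neighbour median of PAXIP1 was 0.73.

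JMJD6 partners in pause release and splicing split evenly, with 2 of 12 higher and 2 lower (median 0.05). MEPCE, which caps and stabilizes the 7SK RNA, rose from 25.2, 25.4 and 22.6 to 49.1, 52.2 and 47.2 (log2 fold change 0.99 ± 0.07 SE, limma adjusted p = 0.000139), and its neighbours on chromosome 7 had a median of 0.56. CDK9, the kinase of P-TEFb, rose by 0.26. LARP7 and HEXIM1, which with 7SK hold P-TEFb inactive, fell by 0.38 and 0.26 on the log2 scale, with neighbour medians of -0.09 and -0.39. U2AF2, a splicing factor hydroxylated by JMJD6, was not called at means of 92.1 and 109.3. Its groups do not overlap, as for 51.6% of all tested genes, and it was added after its values were seen.

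Of 26 histone lysine methyltransferases, which place the marks these enzymes remove, 4 rose and 3 fell (median 0.16). EZH2 counts here as well, and KMT2E rose with it by 0.86 in a part of chromosome 7 with a neighbour median of 0.74. SUV420H2, an H4K20 methyltransferase, rose by 0.33. NSD1 fell by 0.96 on the log2 scale in a part of chromosome 5 with a neighbour median of -0.63, and its call was lost with each library left out except parental replicate 3 (adjusted p from 0.0553 to 0.124). SETD7 and SMYD2 fell by 0.85 and 0.74, with neighbour medians of 0.08 and 0.04. Of 8 arginine methyltransferases 2 rose and 3 fell (median -0.07). PRMT6 and PRMT1 rose by 0.28 and 0.18, and CARM1, PRMT7 and PRMT3 fell by 0.49, 0.38 and 0.22 on the log2 scale, with a neighbour median of -0.36 for CARM1. The PRMT1 call was lost with each library left out except parental replicate 1 (adjusted p from 0.0801 to 0.105), and the PRMT3 call without parental replicate 3 (0.0576), OTX P/R replicate 1 (0.0639) or OTX P/R replicate 2 (0.0571).

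Among 24 other dioxygenases that use 2-oxoglutarate 3 rose and 3 fell (median -0.03). ALKBH4, PLOD3 and C14orf169, a ribosomal oxygenase related to MINA, rose by 0.81, 0.54 and 0.26, the first of these and PLOD3 on chromosome 7 with neighbour medians of 0.60 and 0.76. The collagen lysyl hydroxylases PLOD2 and PLOD1 fell by 0.83 and 0.57, and EGLN1, an oxygen sensor, fell by 0.27. The C14orf169 call was lost without OTX P/R replicate 2 (0.0505), the PLOD1 call without parental replicate 1 (0.0520), and the EGLN1 call with each library left out except parental replicate 2 (0.0619 to 0.0969). Of 21 enzymes that make or use 2-oxoglutarate, succinate and fumarate, of which the first is the cosubstrate of the JmjC reaction, succinate its product and fumarate an inhibitor, 2 rose and 6 fell (median -0.14). SDHA, which oxidizes succinate, an inhibitor of JmjC enzymes, fell from 211.0, 206.9 and 208.8 to 48.2, 38.1 and 52.9 (log2 fold change -2.16 ± 0.12 SE, limma adjusted p = 7.14e-05). The neighbour median of SDHA on chromosome 5 was -0.95. OGDH, which consumes 2-oxoglutarate, and SUCLG2 fell by 0.46 and 0.37. DLD and IDH3A rose by 0.52 and 0.39, with neighbour medians of 0.59 on chromosome 7 and -0.18 on chromosome 15. Of the other IDH3 subunits, IDH3B fell (means 77.1 and 60.0, log2 fold change -0.36, limma adjusted p = 0.00311). IDH3G was not called (log2 fold change -0.46, limma adjusted p = 0.0957). The DLD call was lost without OTX P/R replicate 2 (0.0528), and the IDH3A call without parental replicate 1 or 2 or OTX P/R replicate 2 or 3 (0.0963 to 0.107). Metabolites were not measured.

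**Figure D4:**
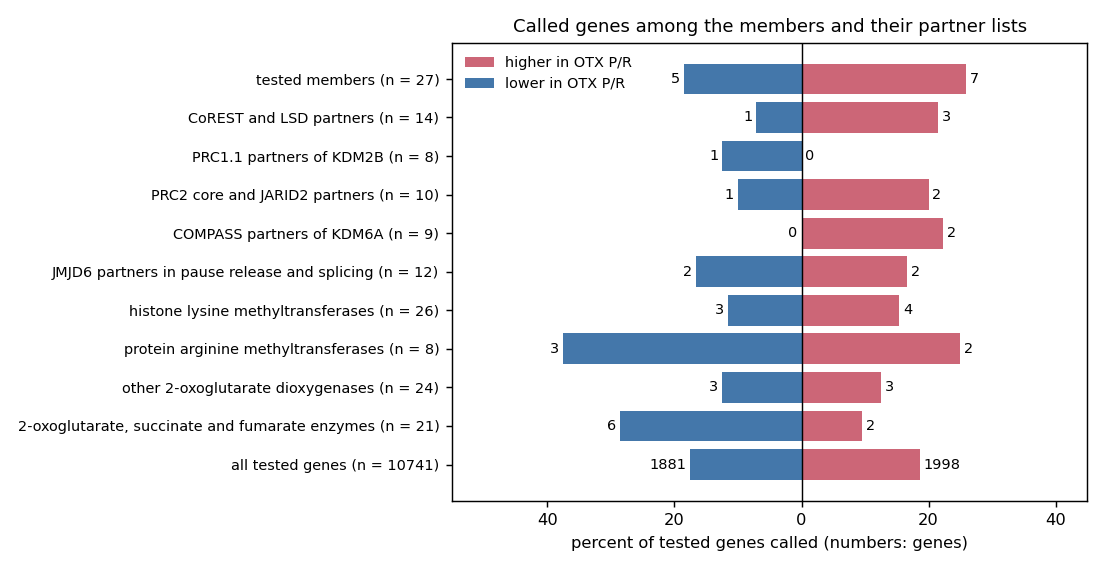
Share of tested genes called higher (red, to the right) or lower (blue, to the left) in OTX P/R cells, in percent, for the tested members, the 9 partner lists and all tested genes; figures at the bars are counts of genes. The members had 7 higher and 5 lower of 27, and all tested genes 1998 higher and 1881 lower of 10741.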

How the data were processed

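The 6 RNA libraries were grouped by their titles, 3 SET-2 Parental and 3 SET-2 OTX P/R. The submitters' processing notes name Trim Galore, HISAT2, StringTie and hg19. Sources used here give no versions, annotation or strand setting. The authors deposited a signal, 1 linear abundance per gene, which StringTie corrects for transcript length, with FPKM or TPM not stated. Sorted values of 1 or more differ between libraries by at most 0.243%, which shows quantile normalization, so depth is lost and no counting interval is given. Of 19785 rows 6 with a missing value were left out. GENCODE release 29 (GRCh38) matched 19528 rows and served for chromosomes, gene order and overlaps only, and promoter windows are RefSeq's on GRCh38.p14.

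On the log2(value + 1) scale, limma 3.58.1 in R 4.3.3 was fitted to 10741 genes whose mean reached 1 (trended prior, two-sided, Benjamini-Hochberg). An exact permutation of 3 against 3 cannot go below p = 0.1, and the limma p-values measure only the spread between these cultures. Named genes are all members and, for each partner list, at most 3 called genes per direction with the largest fold change. U2AF2, IDH3B, IDH3G and the flanking and overlapping genes were added after their values were seen and do not count as named genes. The members and lists were chosen with earlier results of these data known. The procedure was tested on simulated data. Alternatives changed the pseudocount (0.1 and 5), the minimum mean (none and 5), the prior (untrended and robust), the centring (library medians) or the design (a replicate block, each library left out). Python 3.11.15, pandas 2.3.3, NumPy 2.4.6 and Matplotlib 3.10.9 were used.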

Additional observations from a re-analysis of the deposited data

How the results depend on the processing

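No called member or named partner gene changed sign under an alternative. With each library left out, the higher members numbered 2 to 6, the lower members 3 to 5, the partner genes 15 to 19 higher and 16 to 20 lower, and the JMJD6 log2 fold change was 0.08 to 0.21. Of the 12 called members 4 passed in every alternative, and of 35 named partner genes 27. Same-numbered libraries share a number in their titles, and whether a culture or batch also links them is not known. Their deviations from the group means correlated at -0.06 to -0.0003, beside -0.05 to 0.08 for other pairs. With 3 libraries per group the deviations depend on each other, so these values cannot settle it. With the replicate block 3 members were higher and 5 lower. Members that did not pass changed sign in KDM1A (-0.13 without parental replicate 2), KDM2B (-0.00797 likewise), TYW5 (-0.0688 to 0.0117 with libraries left out, the latter without parental replicate 3) and KDM4C. The KDM4C log2 fold change was 0.00524 with a pseudocount of 0.1 and -0.53 to 0.30 with libraries left out. KDM4C was at 0.30 without parental replicate 1, 0.12 without parental replicate 2, 0.18 without OTX P/R replicate 1 and 0.10 without OTX P/R replicate 2. The neighbour medians of KDM1B, KDM3B and JARID2 were 0.84, -0.63 and 0.91 with a pseudocount of 0.1 and 0.41, -0.43 and 0.34 with 5, and -0.58 for KDM3B and 0.94 for JARID2 with a minimum mean of 5. With libraries left out they ranged from 0.69 to 0.78, from -0.55 to -0.51 and from 0.68 to 0.81. No 2-oxoglutarate enzyme list gene was higher without OTX P/R replicate 2, beside 2 with all libraries, and with a minimum mean of 5 COMPASS partners had 1 higher and lysine methyltransferases 1 lower. The causes were not tested. Sequencing depth cannot be read from the table, so its limits on low members such as KDM7A and HR are unknown.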

Other observations

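The length-corrected levels were also summed by branch. The KDM3 sum (KDM3A, KDM3B, JMJD1C and HR) was 27.2, 21.1 and 25.6 in parental and 16.5, 18.9 and 19.9 in OTX P/R libraries, which do not overlap. Most of that difference was KDM3B, at means of 13.4 and 7.82, while KDM3A was at 6.18 and 6.70. The KDM4 sum overlapped, at 19.1 ± 3.18 and 21.5 ± 2.24 (SD, n = 3 per group). The KDM6 sum was 12.1 ± 1.22 and 14.1 ± 1.41, also overlapping. JMJD6 and the small hydroxylases summed to 171.4 ± 4.48 and 158.2 ± 5.11, where JMJD8 rose and MINA fell. These sums are descriptions and were not tested.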
